A study of Mus musculus with 4 samples.

Results

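The genes described here are the Toll-like receptors Tlr1, Tlr2, Tlr3, Tlr4, Tlr6, Tlr7, Tlr9 and Tlr13, the accessory protein gene Ly86, and the adaptor gene Myd88. They were taken by symbol from the deposited gene table, where all 10 were found among 19737 genes, and all 10 passed the filter on low counts in the comparisons over all cells. Toll-like receptors recognise microbial products and products of damaged cells. Tlr1, Tlr2, Tlr4 and Tlr6 act at the cell surface, and Tlr2 pairs with Tlr1 or Tlr6 to bind lipoproteins, while Tlr4 binds lipopolysaccharide. Tlr3, Tlr7, Tlr9 and Tlr13 act in endosomes, where they bind double-stranded RNA, single-stranded RNA, CpG DNA and bacterial ribosomal RNA. All of them except Tlr3 signal through the adaptor Myd88 to NF-kB and interferon regulatory factors, and Tlr3 signals through Ticam1. Ly86, also called MD-1, is the secreted partner of the receptor Cd180, a relative of Tlr4. Microglia, the resident macrophages of the brain, are the main brain cells that carry these receptors.

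UMI counts of single brain microglia from 20 mice were analysed, 4 mice in each of 5 groups, 1 day after an intravenous dose of 10 mg kg−1 antibody. The antibody was ATV:ISO or ATV:4D9 in WT;TfRmu/hu mice. It was 4D9, ATV:4D9 or ATV:ISO in AppSAA;TfRmu/hu mice. All mice, controls included, carried a knocked-in human apical domain of the transferrin receptor (TfRmu/hu) on a C57BL/6J background. AppSAA mice also carried a knocked-in mutant App gene in homozygous form and form amyloid plaques, whereas WT mice had the normal App gene. 4D9 is an antibody that activates mouse TREM2. In the antibody transport vehicle (ATV) form its Fc part also binds the human transferrin receptor domain, and ATV:ISO is a control in the same format. The deposited label of that control, ATV-DNP02, was read as ATV:ISO. WT;TfRmu/hu mice are listed as of mixed sex and 2 to 8 months old and the study with AppSAA mice as male and 8 months old. Replicate 4 of the WT;TfRmu/hu ATV:ISO group is recorded as female. Live CD11b+ cells were sorted. The sources differ on whether CD45 was also used and on whether cortex alone or cortex and hippocampus was taken.

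The annotation gave each of 74758 cells its mouse, its pool and its cluster, and counts were summed per mouse. The mice were run in 4 pools, with 1 mouse per group in each, and the replicate number is the pool number. There were 2193 to 6126 cells and 17150296 to 102446549 UMIs per mouse. Of the barcode sequences, 543 occurred in at least 2 pools, and no 2 cells of a pool shared one. The median UMI count per cell was 6859 to 8174 in WT;TfRmu/hu mice dosed with ATV:ISO and 13479 to 17290 in both ATV:4D9 groups. Levels are given as UMIs per 1000000 UMIs of a mouse after TMM scaling (CPM), a level relative to the rest of that mouse's transcripts. Summed levels of 6 microglial markers were 18612 to 20758 CPM in WT;TfRmu/hu mice after ATV:ISO and 12520 to 17247 CPM in the other 16 mice, and no list of markers for another cell type exceeded 50.9 CPM in any mouse, with 1 of 4 B cell markers without a UMI. The 5 monocyte markers summed to 11.8 to 14.5 CPM in AppSAA;TfRmu/hu mice dosed with ATV:4D9 and to 4.39 to 10.2 CPM in the other 16 mice, and their part in the results below was not tested. The 3 endothelial markers summed to 17.3 to 22.4 CPM after ATV:ISO and 9.88 to 12.3 CPM after ATV:4D9 in WT;TfRmu/hu mice, and to 39.9 to 50.9, 42.3 to 48.6 and 15.5 to 27.3 CPM after ATV:ISO, 4D9 and ATV:4D9 in AppSAA;TfRmu/hu mice. They thus moved with ATV:4D9 and with the genotype. The 3 oligodendrocyte markers summed to 26.4 to 35.1 CPM after ATV:ISO and 15.3 to 25.3 CPM after ATV:4D9 in WT;TfRmu/hu mice. The 5 markers of NK and T cells summed to 1.54 to 2.18 CPM in AppSAA;TfRmu/hu mice after ATV:ISO or 4D9 and to 0.160 to 0.664 CPM in the other 12 mice, and the 3 neuronal markers to 1.02 to 1.54 CPM in WT;TfRmu/hu mice after ATV:ISO and 0.341 to 0.995 CPM in the others. The part of these lists in the results was not tested. p-values are from edgeR's quasi-likelihood test, adjusted over all genes tested in that comparison by the Benjamini-Hochberg method, and a gene is called at an adjusted p under 0.05. Several comparisons share the same ATV:ISO mice and are not independent of each other. The share of all genes whose groups did not overlap was not computed, so a lack of overlap does not set a gene apart.

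**Figure D1:**
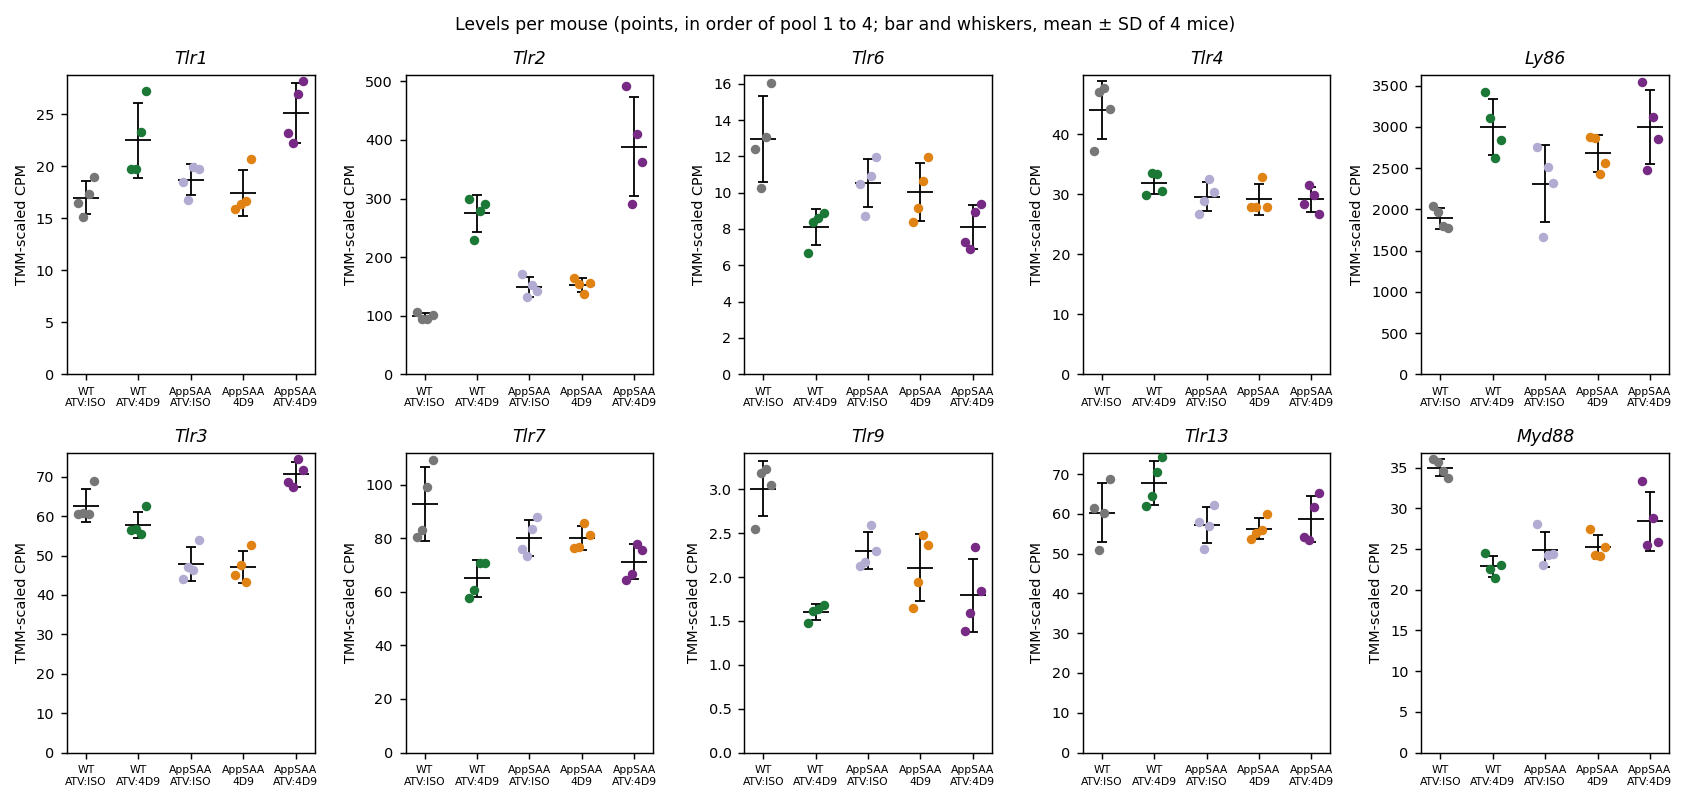
Level of each gene (TMM-scaled CPM, axis from 0) in each of the 20 mice by group. Points are mice in the order of pools 1 to 4, and the bar with whiskers is the mean ± SD of 4 mice. Tlr2 lies at 230 CPM or above in all 8 mice dosed with ATV:4D9 and at 172 CPM or below in the other 12.

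On the CPM scale ATV:4D9 moved the surface receptors in different directions. Tlr2 rose most of the 10 genes. Its levels in WT;TfRmu/hu mice were 106, 94.1, 95.0 and 101 CPM after ATV:ISO and 299, 230, 278 and 291 CPM after ATV:4D9. The groups did not overlap, and the difference was 2.77-fold (log2 fold change 1.47 ± 0.13 SE, adjusted p = 4.27e-09, higher in 4 of 4 pools). In this comparison 63.3% of all 14058 genes tested were called, so a call by itself does not set a gene apart. With the App knock-in Tlr2 was at 172, 131, 152 and 141 CPM after ATV:ISO and at 492, 291, 410 and 363 CPM after ATV:4D9. These groups did not overlap either, and the rise was 2.61-fold (1.38 ± 0.13, adjusted p = 1.62e-08), in a comparison with 55.1% of genes called. After 4D9 without the transport vehicle Tlr2 was at 165, 154, 137 and 156 CPM, within the range of the ATV:ISO mice. The difference of the responses between genotypes was -0.09 ± 0.18 on the log2 scale (adjusted p = 0.833), so a difference of responses was not detected for Tlr2.

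The partners of Tlr2 differed from each other. Tlr1 was at 16.5, 15.1, 17.3 and 19.0 CPM in WT;TfRmu/hu mice after ATV:ISO and at 19.7, 19.7, 23.2 and 27.2 CPM after ATV:4D9, a rise of 1.32-fold (0.40 ± 0.11, adjusted p = 0.00449). It rose 1.34-fold in AppSAA;TfRmu/hu mice (0.42 ± 0.11, adjusted p = 0.00318), from 16.8 to 19.9 CPM to 22.2 to 28.1 CPM. Tlr6 fell instead on the CPM scale. It was at 12.4, 10.3, 13.1 and 16.0 CPM in WT;TfRmu/hu mice after ATV:ISO and at 6.67, 8.39, 8.60 and 8.86 CPM after ATV:4D9 (-0.68 ± 0.14, adjusted p = 3.91e-04). Scaled to the number of cells of a mouse, its difference there was 0.16 and not called (adjusted p = 0.570). With the App knock-in the Tlr6 ranges overlapped, with 10.5, 8.74, 10.9 and 11.95 CPM after ATV:ISO and 7.27, 6.89, 8.95 and 9.36 CPM after ATV:4D9. The call (-0.38 ± 0.14, adjusted p = 0.0288) was lost in 4 of the 8 fits without 1 mouse, those without ATV:ISO replicate 3 or 4 or ATV:4D9 replicate 1 or 2 (adjusted p = 0.0633 to 0.0980). Tlr1 and Tlr6 are neighbours on chromosome 5 (chr5:64924680-64933600 and chr5:64953092-64970942, GRCm38.p6) and near-identical over part of their transcripts. Of the distinct 60-base stretches of their annotated transcripts, 400 of 3322 in Tlr1 and 400 of 3692 in Tlr6 were shared. In addition, 37 of the Tlr1 stretches occurred in transcripts of 56 other genes, at most 26 of them in any 1 gene. In the longest transcripts the shared part lies 469 to 1207 bases from the 3′ end of Tlr1 and 1408 to 2146 bases from that of Tlr6, so reads from there could not be assigned to either gene with certainty.

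On the CPM scale Tlr4 was lower and Ly86 higher after ATV:4D9 in WT;TfRmu/hu mice. Tlr4 was at 37.1, 47.0, 47.7 and 44.1 CPM in WT;TfRmu/hu mice after ATV:ISO and at 29.9, 33.4, 33.4 and 30.6 CPM after ATV:4D9. The groups did not overlap (-0.47 ± 0.09, adjusted p = 8.53e-05). Scaled to the number of cells, the difference in these mice was 0.37 and not called (adjusted p = 0.0579). Tlr4 in the App knock-in mice was at 26.6 to 32.4 CPM after ATV:ISO, 27.8 to 32.9 CPM after 4D9 and 26.6 to 31.6 CPM after ATV:4D9, and no comparison among these treatments was called on the CPM scale. Scaled to the number of cells of a mouse, Tlr4 was called higher after ATV:4D9 than after ATV:ISO (0.46, adjusted p = 0.0272) and than after 4D9 (0.44, adjusted p = 0.0340). Ly86 rose from 2038, 1963, 1801 and 1774 CPM to 3419, 3105, 2625 and 2848 CPM in WT;TfRmu/hu mice (1.58-fold, 0.66 ± 0.13, adjusted p = 1.92e-04). With the App knock-in it was at 2753, 1663, 2510 and 2322 CPM after ATV:ISO and at 3542, 2473, 3116 and 2855 CPM after ATV:4D9. These groups overlapped but the ATV:4D9 mouse was higher in 4 of 4 pools (1.30-fold, 0.37 ± 0.13, adjusted p = 0.0206). That call was lost without ATV:ISO replicate 2 (adjusted p = 0.0812) and without ATV:4D9 replicate 1 (adjusted p = 0.0881).

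On the CPM scale the endosomal receptors fell or did not pass the test in WT;TfRmu/hu mice. Tlr7 was at 80.3, 82.9, 99.0 and 109 CPM after ATV:ISO and at 57.7, 60.9, 70.8 and 70.9 CPM after ATV:4D9 (-0.51 ± 0.10, adjusted p = 1.60e-04). Tlr9 rested on few UMIs, with 46 to 99 UMIs per mouse after ATV:ISO and 90 to 138 after ATV:4D9. Its level was 2.55, 3.19, 3.23 and 3.05 CPM against 1.47, 1.62, 1.64 and 1.69 CPM (-0.91 ± 0.16, adjusted p = 4.30e-05). Scaled to the number of cells, Tlr7 was at 0.32 (adjusted p = 0.164) and Tlr9 at -0.07 (adjusted p = 0.812), neither of them called. In the other genotype Tlr9 was at 2.13, 2.17, 2.59 and 2.30 CPM and at 1.39, 1.59, 2.35 and 1.84 CPM, with overlap (-0.38 ± 0.15, adjusted p = 0.0396). That call was lost without ATV:ISO replicate 3 or 4 or ATV:4D9 replicate 1, 2 or 4 (adjusted p = 0.0686 to 0.147), and without the filter on low counts (adjusted p = 0.0657). Tlr13 was at 50.8 to 68.8 CPM and 61.9 to 74.2 CPM, with overlap (0.17 ± 0.09, adjusted p = 0.117). Tlr3 was at 60.4, 60.9, 60.5 and 68.9 CPM after ATV:ISO and at 56.5, 56.8, 55.4 and 62.7 CPM after ATV:4D9 (-0.12 ± 0.08, adjusted p = 0.19). Blocking on the pool, both of these passed the test, Tlr3 lower (-0.12, adjusted p = 0.0257) and Tlr13 higher (0.17, adjusted p = 0.00463). Tlr13 was also called without the filter on low counts (0.24, adjusted p = 0.0409). Scaled to the number of cells, both were called higher, Tlr3 at 0.73 (adjusted p = 9.77e-04) and Tlr13 at 1.01 (adjusted p = 8.60e-05). Tlr7 and Tlr13 lie on the X chromosome, and the female mouse, of pool 4, had the highest level of both in its group. The mouse of pool 4 was also the highest for Tlr13 in the other 4 groups and for Tlr7 in 2 of them. Without the female mouse, Tlr13 was called (adjusted p = 0.0346).

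Tlr3 and the adaptor Myd88 were the members whose response to ATV:4D9 differed most between the genotypes on the CPM scale. In AppSAA;TfRmu/hu mice Tlr3 rose from 44.1, 47.2, 46.4 and 53.9 CPM to 68.7, 67.5, 74.5 and 71.8 CPM, without overlap (1.47-fold, 0.56 ± 0.08, adjusted p = 3.86e-06). The genotype by ATV:4D9 interaction for Tlr3, the log2 response with the App knock-in minus the response without it, was 0.68 ± 0.11 (adjusted p = 4.12e-04). Myd88 was at 36.1, 35.7, 34.6 and 33.7 CPM in WT;TfRmu/hu mice after ATV:ISO and at 24.6, 22.5, 21.5 and 23.0 CPM after ATV:4D9 (-0.61 ± 0.08, adjusted p = 2.31e-06). Scaled to the number of cells, Myd88 was at 0.23 there and not called (adjusted p = 0.105). In AppSAA;TfRmu/hu mice it was at 28.1, 23.0, 24.3 and 24.4 CPM after ATV:ISO and at 33.4, 25.5, 28.8 and 25.8 CPM after ATV:4D9. That difference missed the threshold (0.19 ± 0.08, adjusted p = 0.0583) but was in the same direction in 4 of 4 pools and passed with the pool as a block (0.18, adjusted p = 0.00318) and per cell (0.69, adjusted p = 8.95e-05). Its interaction was 0.80 ± 0.12 (adjusted p = 1.83e-04). Tlr4 had the remaining called interaction (0.44 ± 0.12, adjusted p = 0.0251), which was lost in 8 of the 16 fits that left out 1 mouse (adjusted p = 0.0530 to 0.0631) and without the filter on low counts (adjusted p = 0.0711). Those mice were replicates 2 and 3 of WT;TfRmu/hu ATV:ISO, 1 and 4 of WT;TfRmu/hu ATV:4D9, 1 and 2 of AppSAA;TfRmu/hu ATV:ISO and 2 and 3 of AppSAA;TfRmu/hu ATV:4D9. Over all genes 9.14% had a called interaction, 41.5% of them above 0. Scaled to the number of cells of a mouse, where the median over all genes was -0.30 and 1.7% of the calls were above 0, the values were 0.33 for Tlr3, 0.09 for Tlr4 and 0.45 for Myd88, and none of these was called. On that scale the interaction of Ly86 was called (-0.63, adjusted p = 0.0417), against -0.29 ± 0.19 on the CPM scale (adjusted p = 0.407), and that of Tlr13 was -0.48 (adjusted p = 0.247). In a fit with the pool as a block the interactions of Tlr7 (0.34, adjusted p = 5.80e-04) and Tlr9 (0.52, adjusted p = 0.0141) were called too, in a fit that called 30.5% of genes.

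Counted together, 8 of the 10 genes were called for ATV:4D9 against ATV:ISO in WT;TfRmu/hu mice, 3 higher and 5 lower, beside 63.3% of all genes. With the App knock-in 6 were called, 4 higher (Tlr1, Tlr2, Tlr3 and Ly86) and 2 lower (Tlr6 and Tlr9), a share near the 55.1% of all genes. The median log2 fold change of the 10 was -0.29 in the former and 0.11 in the latter, beside -0.05 and -0.03 over all genes tested. Blocking on the pool gave 10 and 8 calls, beside 74.6% and 70.7% of all genes, since Tlr7 (-0.17, adjusted p = 0.00232) and Myd88 joined in AppSAA;TfRmu/hu mice. In the latter the number fell to 3 without ATV:4D9 replicate 1, which lost Tlr6, Tlr9 and Ly86, beside 48.0% of all genes. All these directions are on the CPM scale. Scaled instead to the number of cells of a mouse, the median over all genes was 0.79 higher on the log2 scale in WT;TfRmu/hu and 0.47 higher in AppSAA;TfRmu/hu mice, and 6 of the 7 lower calls turned to values above 0, none of them called. These were Tlr4, Tlr6, Tlr7 and Myd88 in the former genotype and Tlr6 and Tlr9 in the latter. Of all called genes 48.7% and 50.7% were higher on the CPM scale and 96.7% and 94.2% per cell. Measured from that median, Tlr4 was at -0.42, Tlr7 at -0.47, Tlr6 at -0.63, Tlr9 at -0.86 and Myd88 at -0.56 in WT;TfRmu/hu mice, and Tlr2 at 1.53.

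**Figure D2:**
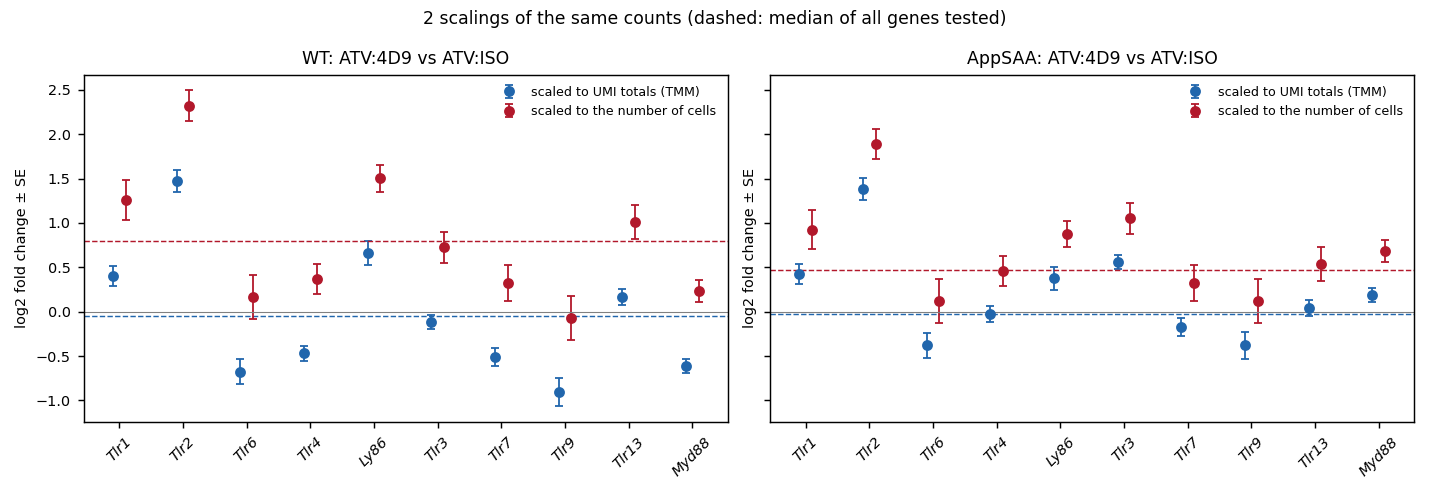
Log2 fold change (± SE) of each gene for ATV:4D9 against ATV:ISO, from the same counts scaled to UMI totals with TMM or to the number of cells, with the median of all genes tested as a dashed line. Tlr3, Tlr4, Tlr6, Tlr7 and Myd88 in WT and Tlr4, Tlr6, Tlr7 and Tlr9 in AppSAA mice lie below 0 under the former scaling and above 0 under the latter, and Tlr1, Tlr2 and Ly86 are above 0 under both.

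Plain 4D9 was compared with the same antibody in the transport vehicle, which addresses whether the vehicle changes the response at an equal dose. Between 4D9 and ATV:ISO in AppSAA;TfRmu/hu mice edgeR called none of the 10 genes and 0% of all genes. At an unadjusted p under 0.05 there were 0 of the 10 and 79 of 14058 genes, and DESeq2 called 1 gene and limma-voom 0. Their log2 fold changes lay between -0.12 (Tlr9, SE 0.15) and 0.21 (Ly86, SE 0.13). Between ATV:4D9 and 4D9 Tlr2 (1.35 ± 0.13, adjusted p = 2.43e-08), Tlr3 (0.58 ± 0.08, adjusted p = 2.41e-06) and Tlr1 (0.53 ± 0.11, adjusted p = 5.52e-04) were higher after ATV:4D9, in a comparison with 54.3% of genes called. Each was without overlap and higher in 4 of 4 pools, and the share of all genes with that trait was not computed. Per cell 92.9% of the called genes were higher, against 50.8% on the CPM scale, and Tlr4 was at 0.44, near the median of 0.42 over all genes. Tlr6 (0.13), Tlr7 (0.28) and Tlr9 (0.18) were above 0 per cell and not called. Ly86 (0.63, adjusted p = 0.00112), Myd88 (0.63, adjusted p = 2.61e-04) and Tlr13 (0.51, adjusted p = 0.0284) were called higher per cell but not on the CPM scale without the block. Blocking on the pool gave 7 calls, beside 69.9% of all genes, with Myd88 higher (0.16, adjusted p = 0.00816) and Tlr6 (-0.31, adjusted p = 0.00192), Tlr7 (-0.17, adjusted p = 0.00244) and Tlr9 (-0.26, adjusted p = 0.0376) lower.

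The genotypes were compared within a treatment. After ATV:ISO, Tlr2 was 1.51-fold higher with the App knock-in (0.59 ± 0.13, adjusted p = 0.00122). Myd88 (-0.49 ± 0.08, adjusted p = 1.39e-04), Tlr4 (-0.57 ± 0.09, adjusted p = 3.97e-05) and Tlr3 (-0.39 ± 0.08, adjusted p = 6.41e-04) were lower. All 4 genes were without overlap, a trait whose share over all genes was not computed. These 4 calls stand beside 28.2% of all genes. The endothelial markers given above also differed between these groups. Scaled to the number of cells, Tlr3 (-0.15), Tlr4 (-0.33) and Myd88 (-0.26) were not called and Ly86 was called higher (0.53, adjusted p = 0.0102), the median over all genes was 0.18 and 93.9% of the called genes were higher, against 51.2% on the CPM scale. On the CPM scale Ly86 was also called without AppSAA;TfRmu/hu replicate 2 (0.42, adjusted p = 0.0113). A block for the pool gave 9 calls of the 10, beside 7166 of 14058 genes (51%). Tlr1 (0.14, adjusted p = 0.0449) and Ly86 (0.28, adjusted p = 0.0339) then joined as higher and Tlr6 (-0.30, adjusted p = 0.00537), Tlr7 (-0.21, adjusted p = 8.92e-04) and Tlr9 (-0.39, adjusted p = 0.00625) as lower. After ATV:4D9, Tlr2 (0.50 ± 0.12, adjusted p = 0.00942), Tlr3 (0.29 ± 0.08, adjusted p = 0.0149) and Myd88 (0.31 ± 0.08, adjusted p = 0.0154) were higher in AppSAA;TfRmu/hu mice, beside 11.8% of all genes. Per cell the values were 0.39, 0.17 and 0.20, none of them called, with a median over all genes of -0.12. On the CPM scale Tlr3 was lost without replicate 3 of either group, and Myd88 without WT;TfRmu/hu replicate 3 or AppSAA;TfRmu/hu replicate 1 (adjusted p = 0.0521 to 0.0588). On the CPM scale the order of the genotypes for Tlr3 and Myd88 was opposite under ATV:ISO and ATV:4D9, without overlap in either. With the pool as a block Tlr1 (0.16, adjusted p = 0.0189), Tlr7 (0.13, adjusted p = 0.0299) and Tlr13 (-0.21, adjusted p = 0.00267) were also called, beside 31.4% of all genes.

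**Figure D3:**
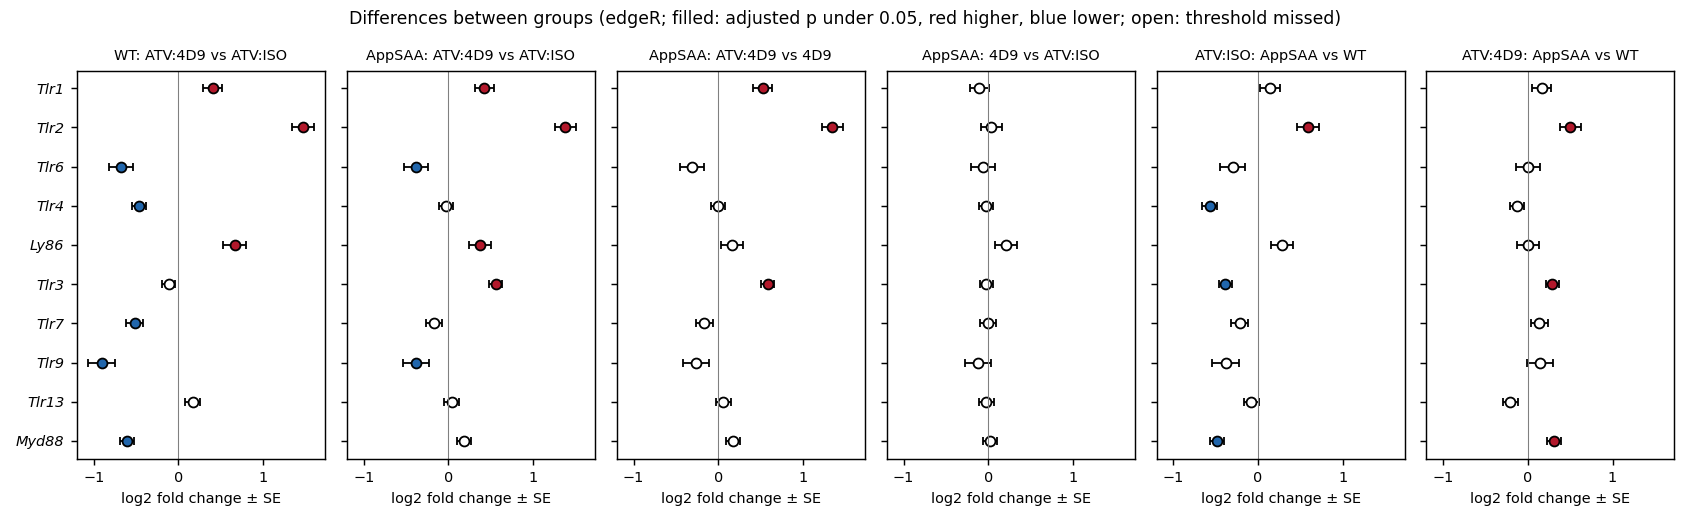
Log2 fold change (± SE, CPM scale) of the 10 genes in 6 comparisons of 4 against 4 mice, filled red or blue where the adjusted p was under 0.05 and open where it missed. Tlr2 is filled red in 5 of the 6 panels and none is filled for 4D9 against ATV:ISO. Scaled to the number of cells, the blue points of the first and second panel turn positive except Tlr9 in WT, and those of the fifth stay negative without a call.

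In the order of group means on the CPM scale, Tlr2 was highest in AppSAA;TfRmu/hu ATV:4D9 mice (389 ± 84.2 CPM, SD, n = 4), then WT;TfRmu/hu ATV:4D9 (275 ± 31.1), AppSAA;TfRmu/hu 4D9 (153 ± 11.7), AppSAA;TfRmu/hu ATV:ISO (149 ± 17.3) and WT;TfRmu/hu ATV:ISO (99.1 ± 5.69). The first pair overlapped, and the AppSAA;TfRmu/hu 4D9 and ATV:ISO groups overlapped. Tlr4 stood out for a single group, with 44.0 ± 4.83 CPM in WT;TfRmu/hu ATV:ISO mice and means of 29.1 to 31.8 CPM in the other 4 groups, which overlapped each other. Myd88 likewise was at 35.0 ± 1.08 CPM in WT;TfRmu/hu ATV:ISO mice and at 22.9 to 28.4 CPM elsewhere. In UMIs per cell neither was highest in that group, with Tlr4 at 0.424 ± 0.0838 there and highest after ATV:4D9 in WT;TfRmu/hu mice (0.548 ± 0.0726), and Myd88 at 0.335 ± 0.0310 there and highest after ATV:4D9 in AppSAA;TfRmu/hu mice (0.451 ± 0.0579). Tlr3 was at 47.1 ± 4.07 and 47.9 ± 4.24 CPM in AppSAA;TfRmu/hu mice after 4D9 or ATV:ISO and at 57.8 ± 3.28 to 70.6 ± 3.18 CPM in the other 3 groups.

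The genes lay in different genomic places, without exons shared with another gene for 8 of the 10. Tlr3 (chr8:45395665-45411075) overlaps an antisense transcript, Gm45542, and Myd88 (chr9:119335934-119340018) overlaps an exon of Acaa1a on the opposite strand (RefSeq coordinates, GRCm38.p6). The paper names Chromium single-cell libraries and the standard Cell Ranger pipeline. The sources used here do not spell out the use of strand in counting, and whether reads of such a pair were mixed was not tested. RefSeq promoters of GRCm38.p6, from 250 bases before to 50 bases after a transcript start, were at hand for 8 of the 10 genes. They were searched on both strands for AANNGAAA, the core of sites for interferon regulatory factors, for a longer interferon response element, GAAA, any 2 bases and GAAA, which contains the former, and for a form of the NF-kB site, GGGA, any base and TTCCC. The longer element was found in Myd88 and Tlr6 and in 3.44% of 32851 promoters. The core was found in 6 of the 8 genes and in 23.9% of promoters, and the NF-kB form in Tlr2 only and in 0.359%. The 8 genes had 10 promoters, of which 6 held the core, since Tlr1 and Tlr6 each have another promoter without any of the patterns. The matches below are shown because Tlr2 rose most, and because Tlr3 and Myd88 differed most between the genotypes in their response on the CPM scale, with capitals marking the match.
Tlr2, NF-kB form, chr3:83841761-83841790, minus strand: aggacacctgGGGAATTCCCacacggagcc
Tlr3, interferon core, chr8:45410421-45410450, plus strand: gtgtctaaacaAAGTGAAAgccattcactt
Myd88, longer interferon element, chr9:119340039-119340068, minus strand: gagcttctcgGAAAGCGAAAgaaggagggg
Tlr6, longer interferon element, chr5:64959263-64959292, plus strand: aacagaaagtGAAAGAGAAAagaatagtca
The match in Tlr2 reads the same on both strands and was counted as 1 site. In the GENCODE annotation its window touches an exon of Tlr2 and that of Myd88 an exon of Myd88, and those of Tlr3 and Tlr6 touch no exon. The stretches shown for Tlr2, Tlr3 and Tlr6 lie inside the RefSeq bounds of these genes, so the starts used are not the outermost ones. Tlr6 is shown as the other gene with the longer element, where a second match overlaps this one. On the CPM scale Tlr6 was lower after ATV:4D9. The core also matched 2 times in Tlr2, 4 times in Tlr6, and 1 time each in Ly86 and in 1 promoter of Tlr1. The part of any of these sites in the levels was not tested. The promoters of Tlr9 and Tlr13 held none of the 3 patterns.

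The levels of the 10 genes differed among the 6 deposited clusters of cells, computed for each mouse with at least 50 cells of a cluster. The clusters carry no deposited names and were described by single genes chosen after their values were seen. Homeostatic genes Tmem119 and P2ry12 were highest in clusters 0 and 3, the immediate early gene Fos in cluster 3, the plaque-response gene Cst7 in cluster 1, the proliferation marker Mki67 in cluster 4 and the interferon-stimulated gene Ifit3 in cluster 5.  Medians over mice compare different sets of mice, since few mice of some groups had 50 cells in a cluster, so differences within the same mice follow. These are descriptions without a test, since the clusters were made from the same cells. They are on the CPM scale unless UMIs per cell are named, and clusters differ in UMIs per cell.

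**Figure D4:**
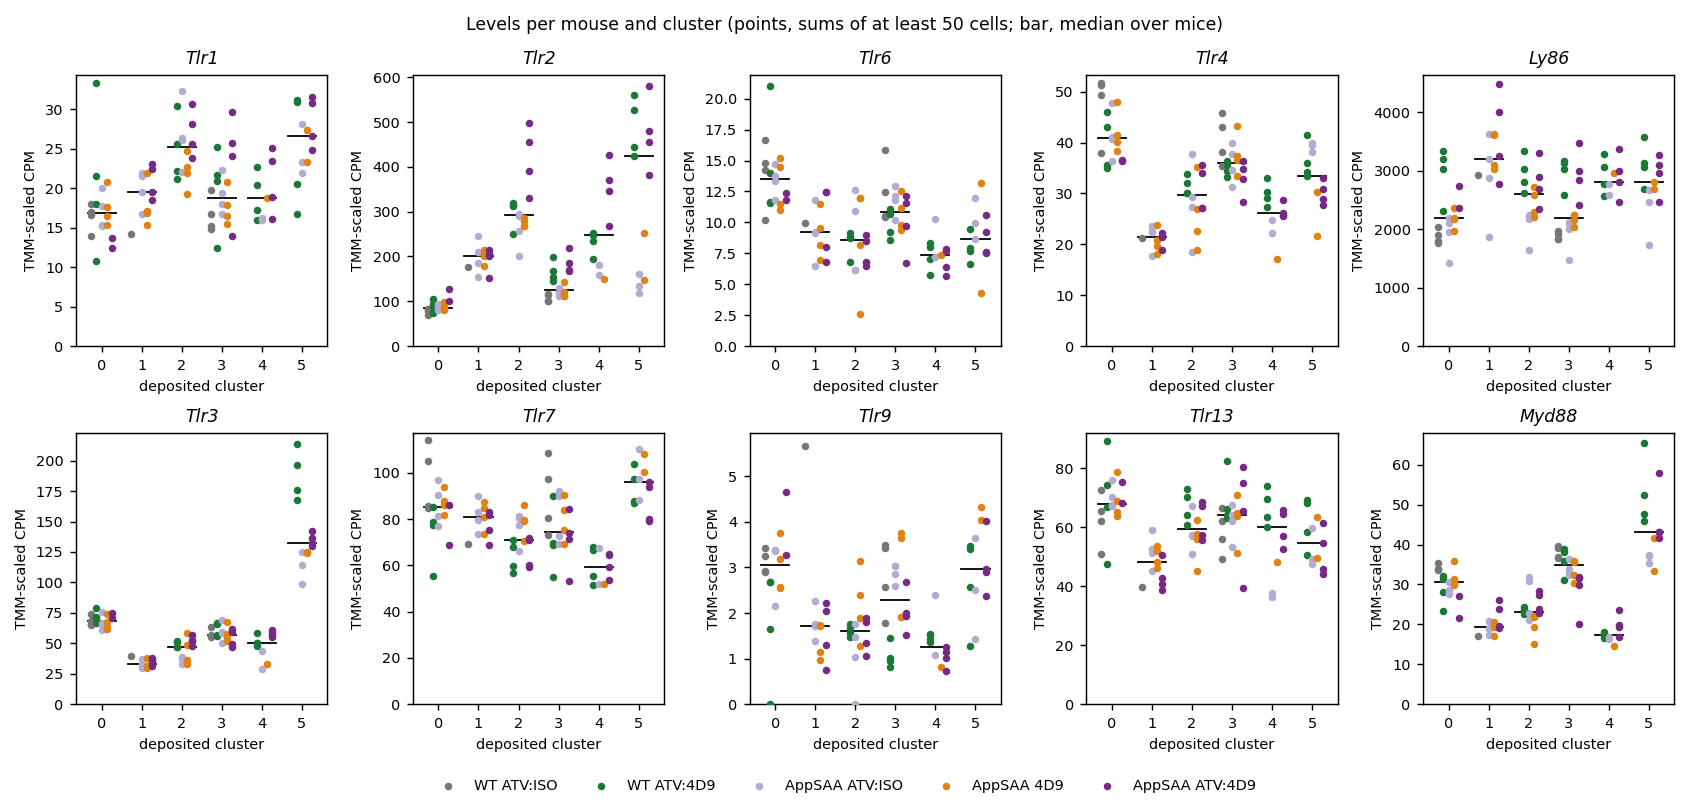
Level of each gene (TMM-scaled CPM, axis from 0) in sums of at least 50 cells of 1 mouse and 1 deposited cluster, colored by group, with the median over mice as a bar. Tlr3 in cluster 5 (98.8 to 214 CPM) lies above all sums of the other clusters (at most 78.8 CPM), and Myd88 is highest and Tlr2 most spread there.

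Cluster 5 was set apart by Tlr3. Its Tlr3 level was 98.8 to 214 CPM in 13 mice (median 132 CPM), and the highest value in any other cluster was 78.8 CPM. Within AppSAA;TfRmu/hu ATV:4D9 mice Tlr3 was at 135 CPM in cluster 5 and 52.4 CPM in cluster 2 (log2 difference 1.37 ± 0.07 SD, higher in 4 of 4 mice). In WT;TfRmu/hu ATV:4D9 mice the values were 189 and 49.2 CPM (1.93 ± 0.14, 4 of 4 mice). Myd88 was also higher in cluster 5, at 46.4 against 25.6 CPM (0.85 ± 0.22) in the former and 52.9 against 23.6 CPM (1.15 ± 0.20) in the latter, in 4 of 4 mice each. Tlr7 was higher by 0.42 ± 0.02 and 0.56 ± 0.05, in all 8 mice. For Tlr2 the difference was 0.18 ± 0.07 with the App knock-in and 0.71 ± 0.16 without it. Tlr13 was lower in cluster 5 in all 8 mice (-0.28 ± 0.09 and -0.13 ± 0.10). In UMIs per cell of the same mice Tlr3, Myd88 and Tlr7 were also higher in cluster 5 in all 8 mice. Tlr2 differed per cell by -0.02 ± 0.10 with the App knock-in and by 0.78 ± 0.09 without it. Tlr13 differed per cell by -0.47 ± 0.08 and -0.06 ± 0.18, and was higher in 1 of 4 mice in the latter genotype. Over all mice Myd88 in cluster 5 (33.4 to 65.5 CPM) overlapped that in cluster 3 (20.1 to 39.5 CPM). Tlr7 in cluster 5 (79.3 to 110 CPM) overlapped that in cluster 0 (55.4 to 114 CPM). In 3 AppSAA;TfRmu/hu ATV:ISO mice cluster 5 differed from cluster 0 by 0.70 ± 0.10 for Tlr3, 0.38 ± 0.07 for Myd88 and 0.14 ± 0.14 for Tlr7.

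Cluster 1, high in Cst7, had low levels of several receptors. In AppSAA;TfRmu/hu ATV:ISO mice Tlr3 was at 32.5 CPM in cluster 1 and at 67.4 CPM in cluster 0 of the same mice (-1.05 ± 0.04, lower in 4 of 4). Tlr4 was at 21.6 against 41.5 CPM (-0.95 ± 0.14) and Myd88 at 19.0 against 28.7 CPM (-0.60 ± 0.06), both lower in 4 of 4. Tlr2 was at 198 against 87.2 CPM (1.17 ± 0.25) and Ly86 at 2889 against 1917 CPM (0.57 ± 0.14), both higher in 4 of 4. The 4D9 mice gave differences of -1.05 ± 0.08 for Tlr3, -1.03 ± 0.03 for Tlr4, -0.73 ± 0.19 for Myd88, 1.20 ± 0.14 for Tlr2 and 0.62 ± 0.10 for Ly86. In UMIs per cell of the AppSAA;TfRmu/hu ATV:ISO mice the differences were -0.43 ± 0.06 for Tlr3 and -0.32 ± 0.15 for Tlr4, both lower in 4 of 4, and 0.03 ± 0.09 for Myd88. The 4 genes called between genotypes after ATV:ISO over all cells differed in the same directions between clusters 1 and 0 on the CPM scale. The sums over all cells of the AppSAA;TfRmu/hu mice contain these same cells of cluster 1, so the shared directions are partly built in. After ATV:ISO cluster 1 held 38.3% ± 4.64 (SD, n = 4) of the cells of AppSAA;TfRmu/hu mice and 1.41% ± 0.78 of those of WT;TfRmu/hu mice. The part of cluster 1 in the genotype differences was not tested.

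Clusters 2 and 4 held 47.8% ± 3.48 and 40.0% ± 4.44 of the cells of WT;TfRmu/hu mice dosed with ATV:4D9, and 1.35% ± 0.23 and 0.351% ± 0.087 after ATV:ISO. After ATV:4D9 Tlr2 was at 299 CPM in cluster 2 and 90.4 CPM in cluster 0 (1.73 ± 0.13), Tlr3 at 49.2 and 72.0 CPM (-0.55 ± 0.14) and Tlr6 at 8.36 and 14.6 CPM (-0.77 ± 0.37). Ly86 was at 2945 and 2966 CPM, without a direction shared by the mice. In UMIs per cell of the same mice all 4 of these genes had a positive mean difference, with 0.37 ± 0.17 for Tlr3 and 0.91 ± 0.11 for Ly86, higher in 4 of 4 mice, and 0.15 ± 0.40 for Tlr6, higher in 3 of 4. In cluster 4 against cluster 2, Myd88 was at 17.4 and 23.6 CPM (-0.44 ± 0.08) and Tlr2 at 232 and 299 CPM (-0.37 ± 0.06), both lower in 4 of 4 mice. Per cell these differences were -0.18 ± 0.10 and -0.11 ± 0.07, again lower in 4 of 4. In AppSAA;TfRmu/hu ATV:4D9 mice they were -0.37 ± 0.16 and -0.25 ± 0.06 on the CPM scale. Per cell they were there -0.06 ± 0.17 for Myd88 and 0.06 ± 0.07 for Tlr2, with Tlr2 higher in 3 of 4 mice. Cluster 3 differed from cluster 0 in WT;TfRmu/hu ATV:ISO mice by 0.47 ± 0.07 for Tlr2 and 0.15 ± 0.08 for Myd88, higher in 4 of 4 mice, and by -0.24 ± 0.05 for Tlr3, lower in 4 of 4, with 0.06 ± 0.07 for Tlr3 per cell.

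Groups were then compared within a cluster, where at least 3 mice of both groups had 50 cells, on the CPM scale only. For ATV:4D9 against ATV:ISO in WT;TfRmu/hu mice, Ly86 rose in cluster 0 (0.68 ± 0.12, adjusted p = 0.00476) and in cluster 3 (0.66 ± 0.11, adjusted p = 5.83e-04), close to its value of 0.66 over all cells. Tlr2 rose in cluster 3 by 0.61 ± 0.11 (adjusted p = 7.34e-04), and in cluster 0 its difference was 0.23 ± 0.11 (adjusted p = 0.393), against 1.47 over all cells. Myd88 differed by -0.22 ± 0.12 in cluster 0 and -0.09 ± 0.10 in cluster 3, neither of them called, against -0.61 over all cells. Of all genes 1.57% were called in cluster 0 and 6.17% in cluster 3. Blocked by pool, Tlr7 was called in cluster 0 (-0.37, adjusted p = 0.00721) and cluster 3 (-0.32, adjusted p = 0.00281), and Tlr9 in cluster 3 (-1.35, adjusted p = 0.0374), beside 9.39% and 17.5% of all genes. These clusters held 60 to 186 and 104 to 242 cells per ATV:4D9 mouse.

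In AppSAA;TfRmu/hu mice the response to ATV:4D9 could be followed in 4 clusters. In cluster 2 Tlr2 (0.67 ± 0.13, adjusted p = 0.00112), Tlr3 (0.49 ± 0.13, adjusted p = 0.0128) and Ly86 (0.43 ± 0.12, adjusted p = 0.0196) rose, beside 11.8% of all genes. That of Ly86 was lost without ATV:ISO replicate 2 or ATV:4D9 replicate 1, with an adjusted p = 0.0673 in the latter fit. In cluster 3 Tlr2 (0.63 ± 0.11, adjusted p = 7.52e-04) and Ly86 (0.61 ± 0.11, adjusted p = 0.00166) rose, beside 4.33%. In cluster 5 Tlr2 rose 3.34-fold (1.74 ± 0.16, adjusted p = 7.49e-07) and Tlr4 fell (-0.41 ± 0.13, adjusted p = 0.0237), in 4 against 3 mice and beside 28.1% of all genes. The call of Tlr4 was lost in 4 of the fits without 1 mouse, those without ATV:ISO replicate 2, 3 or 4 or ATV:4D9 replicate 4, of which the first 3 rest on 2 ATV:ISO mice. Tlr2 in that cluster was at 119, 160 and 134 CPM in the ATV:ISO mice and at 580, 382, 481 and 455 CPM in the ATV:4D9 mice. In cluster 1 edgeR and limma-voom called none of the 10 and 1 had an unadjusted p under 0.05, beside 1.83% of all genes. Tlr2 there differed by -0.04 ± 0.13. Blocked by pool, Tlr13 was called in cluster 1 (-0.25, adjusted p = 0.0108), Tlr7 in cluster 2 (-0.22, adjusted p = 0.0387), and Tlr3 (0.28, adjusted p = 0.0227) and Ly86 (0.28, adjusted p = 0.0479) in cluster 5. Those fits called 10.2%, 22% and 33.1% of all genes.

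**Figure D5:**
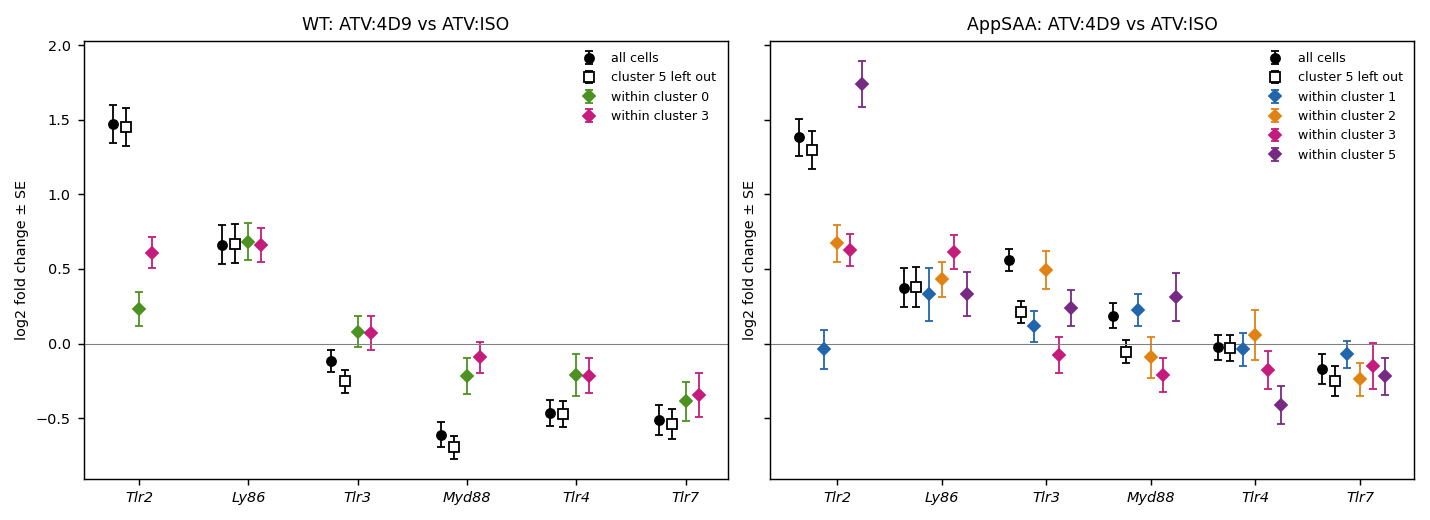
Log2 fold change (± SE) for ATV:4D9 against ATV:ISO of 6 genes over all cells, with the cells of cluster 5 left out, and within the clusters that could be tested. Ly86 lies between 0.33 and 0.68 in every comparison shown, Tlr2 between -0.04 (cluster 1) and 1.74 (cluster 5), and Myd88 in AppSAA mice drops from 0.19 to -0.05 without cluster 5.

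The share of cluster 5 differed between the groups. It was 22.4% ± 4.26 (SD, n = 4) of cells in AppSAA;TfRmu/hu mice dosed with ATV:4D9, 4.21% ± 1.02 in WT;TfRmu/hu mice dosed with ATV:4D9 and 0.737% to 2.48% on average in the other groups. Cluster 5 was left out after the data were seen, and it had the highest median Tlr3 and Myd88 of the clusters. Lower values of both genes without it in the ATV:4D9 mice thus follow from that choice, and the source of the differences was not tested. With the cells of cluster 5 left out, the ATV:4D9 response of Tlr3 in AppSAA;TfRmu/hu mice was 0.21 in place of 0.56 (adjusted p = 0.0216) and that of Myd88 was -0.05 in place of 0.19 (adjusted p = 0.578). Between genotypes after ATV:4D9, Tlr3 was then at 0.04 (adjusted p = 0.899) and Myd88 at 0.13 (adjusted p = 0.414), so both calls were lost, and Tlr2 was at 0.46 (adjusted p = 0.0246). The interactions were still called, at 0.47 for Tlr3 (adjusted p = 0.00913), 0.64 for Myd88 (adjusted p = 9.45e-04) and 0.44 for Tlr4 (adjusted p = 0.0335). Other calls appeared without cluster 5. In WT;TfRmu/hu mice Tlr3 was then lower after ATV:4D9 (-0.25, adjusted p = 0.00592), against -0.12 over all cells. In AppSAA;TfRmu/hu mice Tlr7 was lower (-0.25, adjusted p = 0.0383) and the value of Tlr9 moved from -0.38 to -0.68 (adjusted p = 9.30e-04). Against 4D9, Tlr6 (-0.35, adjusted p = 0.0482), Tlr7 (-0.25, adjusted p = 0.0389) and Tlr9 (-0.56, adjusted p = 0.00522) were then lower after ATV:4D9. With the pool as a block and without cluster 5, Tlr13 was called for ATV:4D9 in WT;TfRmu/hu mice (0.18, adjusted p = 0.00306) and between genotypes after ATV:4D9 (-0.18, adjusted p = 0.0123), and Tlr7 for the interaction (0.28, adjusted p = 0.00363).

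Genotypes were also compared within clusters. After ATV:ISO edgeR and limma-voom called none of the 10 genes in cluster 0 or cluster 3, beside 0.232% and 0.189% of all genes, with 1 and 0 of the 10 at an unadjusted p under 0.05. Tlr4, Tlr3 and Myd88, called lower over all cells, were within 0.25 of 0 on the log2 scale in both clusters. With the pool as a block Tlr4 (-0.19, adjusted p = 0.0448) and Myd88 (-0.25, adjusted p = 0.0067) were called lower in cluster 0, beside 4.83% of all genes. After ATV:4D9 Tlr2 was higher in AppSAA;TfRmu/hu mice in cluster 2 (0.48 ± 0.12, adjusted p = 0.0319, beside 2.35% of all genes) and in cluster 4 (0.60 ± 0.13, adjusted p = 0.0332, beside 2.53%). In cluster 3 edgeR and limma-voom called none, 0 of the 10 were at an unadjusted p under 0.05, and 0.163% of all genes were called. In cluster 5 Tlr3 was lower in AppSAA;TfRmu/hu mice (-0.50 ± 0.10, adjusted p = 0.00565, beside 6.84%), with 132, 130, 136 and 142 CPM against 167, 176, 197 and 214 CPM and no overlap. The genotype difference of Tlr3 in cluster 5 therefore had the opposite sign to that over all cells. With the pool as a block Tlr3 (0.16, adjusted p = 0.0279) and Tlr13 (-0.16, adjusted p = 0.0189) were called in cluster 4, and Tlr4 (-0.28, adjusted p = 0.0471) and Tlr13 (-0.26, adjusted p = 0.0277) in cluster 5, beside 15.6% and 17.5% of all genes. The call of Tlr2 in cluster 2 was lost when sums of 20 cells or more were used and in 5 of the 8 fits without 1 mouse, and that in cluster 4 in 6 of 8.

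Other genes of the pathway were read from lists of receptors, coreceptors, chaperones, adaptors, transcription factors, inhibitors and target genes, and every fall or rise of these genes is on the CPM scale unless the number of cells is named. The counts of called genes stand beside 63.3% of all genes called for ATV:4D9 in WT;TfRmu/hu mice, 55.1% in AppSAA;TfRmu/hu mice and 28.2% between genotypes after ATV:ISO. For ATV:4D9 against ATV:ISO, 28 genes of the lists were higher in each genotype, and all of them were also called higher when scaled to the number of cells. Of the 30 lower genes in WT;TfRmu/hu mice, 28 were above 0 per cell and 17 of these were called higher there, while 1 was called lower. Of the 19 lower genes in AppSAA;TfRmu/hu mice, 17 were above 0 per cell without a call and 2 were called lower. Tlr5 was lower per cell in both genotypes. With the pool as a block no list gene lost a call. Of the 76 list genes tested, 58 without and 67 with the block were called in WT;TfRmu/hu mice, 47 and 58 in AppSAA;TfRmu/hu mice, 28 and 50 between genotypes after ATV:ISO, and 10 and 36 for the interaction, beside 74.6%, 70.7%, 51% and 30.5% of all genes with the block. Of 4 further receptors, Tlr8 and Tlr11 were too low to test. Tlr5, the flagellin receptor, was at 6.50 ± 1.31 CPM (SD, n = 4) in WT;TfRmu/hu mice after ATV:ISO and at 2.27 to 2.75 CPM after ATV:4D9 (-1.38 ± 0.20, adjusted p = 4.44e-06), and it fell by 1.10 ± 0.20 in AppSAA;TfRmu/hu mice (adjusted p = 1.21e-04). On the CPM scale Tlr12 passed in both genotypes only with the block, as higher (0.11, adjusted p = 0.0472, and 0.13, adjusted p = 0.0150). Scaled to the number of cells it was called higher in both (0.95, adjusted p = 1.81e-04, and 0.62, adjusted p = 0.00872). Of the 4 coreceptors tested of 5, 3 were called in each genotype, beside the 63.3% and 55.1% of all genes. Cd180, the receptor that Ly86 accompanies, rose in WT;TfRmu/hu mice from 148 ± 12.5 to 324 ± 24.3 CPM (1.13 ± 0.09, adjusted p = 1.56e-09) and in AppSAA;TfRmu/hu mice from 205 ± 15.0 to 368 ± 33.6 CPM (0.84 ± 0.09, adjusted p = 1.65e-07). Ly96, which presents lipopolysaccharide to Tlr4, fell from 58.4 ± 2.16 to 31.8 ± 1.61 CPM in the former (-0.88 ± 0.07, adjusted p = 2.22e-09) and from 43.1 ± 2.10 to 33.1 ± 2.33 CPM in the latter (-0.38 ± 0.07, adjusted p = 1.71e-04). Scaled to the number of cells the values were -0.05 and 0.12, neither of them called. Its interaction was 0.50 ± 0.10 (adjusted p = 0.00305), and 0.16 per cell without a call. Cd14, the lipopolysaccharide carrier, was higher in AppSAA;TfRmu/hu mice under both treatments (0.64 ± 0.13, adjusted p = 7.61e-04, and 0.60 ± 0.13, adjusted p = 0.00292).

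Among 10 genes for folding, transport and proteolytic processing of the receptors, 7 were called in WT;TfRmu/hu mice after ATV:4D9, 3 higher and 4 lower, and 5 in AppSAA;TfRmu/hu mice, 2 higher and 3 lower, near the 63.3% and 55.1% of all genes. Hsp90b1, the chaperone gp96 of the receptors, rose by 0.93 ± 0.11 (adjusted p = 6.11e-07) and 0.71 ± 0.11 (adjusted p = 2.65e-05). Slc15a3, an endosomal transporter, rose by 0.71 ± 0.12 (adjusted p = 3.14e-05) and 0.55 ± 0.12 (adjusted p = 6.38e-04). The protease gene Ctss fell by 0.59 ± 0.14 (adjusted p = 0.00116) and 0.38 ± 0.14 (adjusted p = 0.0277), while per cell it was at 0.25 in WT;TfRmu/hu mice, called higher, and at 0.12 in AppSAA;TfRmu/hu mice, not called. Ctsb, another protease, rose in WT;TfRmu/hu mice (0.78 ± 0.08, adjusted p = 2.82e-08) and had an interaction of -0.71 ± 0.11 (adjusted p = 3.03e-04). Ctsl, a further protease gene, fell by 0.46 ± 0.13 (adjusted p = 0.00357) and 0.79 ± 0.13 (adjusted p = 2.98e-05), while per cell it was called higher in WT;TfRmu/hu mice (0.38) and lower in AppSAA;TfRmu/hu mice (-0.29, adjusted p = 0.0204). Ctsl and Ctsb were higher in AppSAA;TfRmu/hu mice after ATV:ISO, by 1.11 ± 0.13 (adjusted p = 1.57e-06) and 1.05 ± 0.08 (adjusted p = 2.83e-09).

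Of 21 adaptors and kinases, 17 were called in WT;TfRmu/hu mice, 4 higher and 13 lower, with a median log2 fold change of -0.29, beside 63.3% of all genes. In AppSAA;TfRmu/hu mice 12 were called, 4 higher and 8 lower, with a median of -0.18, a count near the 55.1% of all genes. Irak4, the first kinase bound to Myd88, fell by 0.66 ± 0.06 in WT;TfRmu/hu mice (adjusted p = 4.64e-09), Irak2 by 0.63 ± 0.07 (adjusted p = 6.45e-08) and Tab2, which links to the kinase Tak1, by 0.76 ± 0.14 (adjusted p = 9.59e-05). Per cell these were at 0.17, 0.22 and 0.08, none of them called. Ube2n, the ubiquitin-conjugating partner of Traf6, rose by 0.63 ± 0.11 (adjusted p = 3.26e-05) and by 0.64 ± 0.11 in AppSAA;TfRmu/hu mice (adjusted p = 3.88e-05). Pik3ap1, an adaptor to phosphoinositide 3-kinase, rose in AppSAA;TfRmu/hu mice (0.62 ± 0.06, adjusted p = 9.98e-08), with an interaction of 0.81 ± 0.09 (adjusted p = 1.52e-05), which was 0.46 per cell and not called. After ATV:ISO, 6 of the 21 were lower in AppSAA;TfRmu/hu mice and none higher, a share near the 28.2% of all genes, with Tab2 (-0.43 ± 0.14, adjusted p = 0.0267) and Tirap, which brings Myd88 to Tlr2 and Tlr4 (-0.38 ± 0.10, adjusted p = 0.00999). None of the 6 was called per cell, and with the block 10 were lower and 2 higher.

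All 9 transcription factors of the list were called in WT;TfRmu/hu mice, 3 higher and 6 lower, and 7 in AppSAA;TfRmu/hu mice, 3 higher and 4 lower, beside 63.3% and 55.1% of all genes. Irf7, which drives type I interferon genes, rose from 11.4 ± 1.31 to 48.3 ± 23.8 CPM in WT;TfRmu/hu (2.08 ± 0.27, adjusted p = 1.06e-06) and from 17.1 ± 2.54 to 153 ± 43.9 CPM in AppSAA;TfRmu/hu mice (3.16 ± 0.27, adjusted p = 5.04e-09). Nfkb2 rose by 0.49 ± 0.10 (adjusted p = 3.71e-04) and 0.78 ± 0.10 (adjusted p = 2.39e-06), and Irf8 fell by 0.47 ± 0.07 (adjusted p = 7.95e-06) and 0.31 ± 0.07 (adjusted p = 9.83e-04). Per cell Irf8 was at 0.38, called higher, and at 0.19, not called. Of 12 inhibitors, 7 and 6 were called, near those shares of all genes. Tank rose by 0.42 ± 0.09 (adjusted p = 3.23e-04) and 0.78 ± 0.09 (adjusted p = 3.07e-07), Nfkbia by 0.62 ± 0.16 (adjusted p = 0.00283) and 0.56 ± 0.16 (adjusted p = 0.00681), and Tollip fell by 0.65 ± 0.07 (adjusted p = 1.19e-07) and 0.40 ± 0.07 (adjusted p = 7.61e-05), with 0.20 and 0.11 per cell, neither of them called.

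The 18 target genes of the pathway moved mostly upward. With ATV:4D9, 13 rose and 1 fell in WT;TfRmu/hu mice, and 13 rose and none fell in AppSAA;TfRmu/hu mice, with median log2 fold changes of 1.22 and 1.33. Of all genes 63.3% and 55.1% were called, with 48.7% and 50.7% of the calls higher. The chemokine gene Cxcl10 rose from 119 ± 33.2 to 1400 ± 217 CPM in WT;TfRmu/hu mice (3.55 ± 0.30, adjusted p = 3.23e-09) and from 134 ± 44.3 to 2646 ± 946 CPM in AppSAA;TfRmu/hu mice (4.31 ± 0.31, adjusted p = 5.13e-10). The interferon-induced genes Isg15 (2.64 ± 0.24 and 3.57 ± 0.25) and Ifit1 (2.46 ± 0.25 and 3.07 ± 0.23) rose in both genotypes, with adjusted p of 1.32e-08 and 3.78e-10 for Isg15 and of 3.93e-08 and 8.13e-10 for Ifit1. Tnf, a cytokine gene, rose from 105 ± 28.4 to 700 ± 165 CPM in WT;TfRmu/hu mice (2.74 ± 0.25, adjusted p = 8.92e-09), and the chemokine gene Ccl2 from 66.9 ± 13.995 to 834 ± 288 CPM in AppSAA;TfRmu/hu mice (3.64 ± 0.26, adjusted p = 4.43e-10). Il6 was the gene that fell in WT;TfRmu/hu mice (-0.53 ± 0.14, adjusted p = 0.00272), and it was at 0.32 per cell without a call. After ATV:ISO 8 of the 18 were higher with the App knock-in and 1 was lower, among them Cxcl2 (1.87 ± 0.31, adjusted p = 1.03e-04) and Il1b (1.23 ± 0.17, adjusted p = 1.14e-05) as higher. For 4D9 against ATV:ISO edgeR called none of the genes of these lists, with 0 at an unadjusted p under 0.05.

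The genes whose levels followed each member most closely over the 20 mice were listed as the 3 with the highest Pearson r of log2 CPM among 8023 or 8024 genes with a mean of at least 10 CPM. The mice share groups and pools, so these values describe the pattern over groups. Tlr2 was followed by Cd72 (r = 0.990), Nab1 (0.990) and Cxcl16 (0.988). Tlr3 was followed by Pik3ap1 (0.904), Icosl (0.889) and Lcp2 (0.879). Tlr6 had Unk (0.961), Pik3cd (0.959) and Acss1 (0.957), and Tlr7 had Irs2 (0.959), Nckap1l (0.958) and Pik3cd (0.958). For the others the highest r was that of Gbp7 with Myd88 (0.929), Zmiz2 with Tlr1 (0.949), Pik3r5 with Tlr9 (0.949), Med22 with Tlr13 (0.922), Ppil4 with Tlr4 (0.915) and Ier3 with Ly86 (0.865).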

How the data were processed

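Single-cell RNA of sorted CD11b+ cells was measured in 20 mice. Cell Ranger 6.1.1 and the mm10 build were used by the authors for alignment, CellPlex tags gave the mouse of a cell, and Seurat was used for integration and clusters. The deposited values are raw UMI counts per gene and cell. The deposited annotation also gives the percentage of mitochondrial UMIs, which was not used to filter cells here. Doublet handling is not given in the sources used here, and no doublet caller was run. Groups, mice, pools and clusters were taken from that annotation.

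The UMI counts of all cells of a mouse, or of at least 50 of its cells in a cluster, were added up and tested with edgeR 4.0.16 (R 4.3.3) by the quasi-likelihood test after TMM scaling and filterByExpr, with all 5 groups in 1 fit and Benjamini-Hochberg adjustment. Within clusters at least 3 mice per group were required, and a fit without 1 mouse could then rest on 2 mice of a group. DESeq2 1.42.0, limma-voom (limma 3.58.1), other size factors, no filter, a block for the pool, scaling to the number of cells, and leaving out each mouse were alternatives. Leaving out cluster 5, the genotype comparison within clusters after ATV:4D9 and the fits of the pathway lists scaled to the number of cells or with the block were added after seeing the data. The labels put 1 mouse of every group into each pool, and mice of the same pool deviated together from their group means (40 of 40 pairs over 0.1, r = 0.143 to 0.607, other pairs median -0.193), so blocked values of the 10 genes are given where they change a call, and the pathway lists are given with the block by counts. In simulated data for the WT;TfRmu/hu comparison over 14058 genes, 100 genes were changed 1.5-fold and 100 genes 2-fold, without a pool effect. There 60% of 1.5-fold and 80% of 2-fold changes were recovered and 1.41% of calls were unchanged genes. The real comparison called 63.3% of genes, so these shares do not carry over to it.

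The 10 genes and the pathway lists were chosen with earlier results of these data known. Of each list, up to 4 called genes with the largest changes and a mean of at least 10 CPM are named, and for each of the 10 genes 1 to 3 of the 3 genes with the highest correlation, the others not being reported here. Tlr5, Il6 and the genes describing clusters fall outside that rule and were chosen after their values were seen. No p-value was adjusted over a list alone. RefSeq promoters and GENCODE transcripts of GRCm38.p6 gave the sequences.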

Additional observations from a re-analysis of the deposited data

Results flagged for a closer look

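The response to ATV:4D9 differed between the genotypes for Tlr3 (0.68 on the log2 scale), Myd88 (0.80) and Tlr4 (0.44), by the interaction term of the edgeR fit. None of these was called when scaled to the number of cells. On that scale Ly86 had the called interaction (-0.63, adjusted p = 0.0417), which was -0.29 on the CPM scale and not called (adjusted p = 0.407).

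In 3 of 50 groups of 4 mice 1 mouse stood apart from the others by Dixon's criterion, which chance does in about 1 group in 20. Tlr1 was at 20.6 CPM in replicate 4 of AppSAA;TfRmu/hu 4D9 and at 15.9 to 16.6 CPM in the others. Tlr4 was at 32.9 CPM in replicate 3 of that group and at 27.8 to 27.9 CPM in the others. Tlr3 was at 68.9 CPM in replicate 4 of WT;TfRmu/hu ATV:ISO, the mouse recorded as female, and at 60.4 to 60.9 CPM in the others.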

How the results depend on the processing

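DESeq2, limma-voom and other size factors kept the call of all 70 member results and the direction of those called. The sign of results that were not called was not compared. DESeq2 called 1 gene for 4D9 against ATV:ISO where edgeR called none. Scaling to the number of cells gave the opposite sign for 9 of the member results that were called under at least 1 of the scalings, and some results called under neither also changed sign. For ATV:4D9 against ATV:ISO in WT;TfRmu/hu mice the values became 0.73 for Tlr3, 0.37 for Tlr4, 0.16 for Tlr6, 0.32 for Tlr7 and 0.23 for Myd88. With the App knock-in they became 0.46 for Tlr4, 0.12 for Tlr6 and 0.12 for Tlr9, and against 4D9 0.44 for Tlr4. The number of members called became 5 in WT;TfRmu/hu mice (beside 70.5% of all genes), 7 with the App knock-in (55.3%), 2 between genotypes after ATV:ISO (24.4%), 7 for ATV:4D9 against 4D9 (52.7%), 0 between genotypes after ATV:4D9 and 1 for the interaction, with 838 (5.96%) and 2234 (15.9%) genes called in the last pair. The shift of all genes that this scaling brings follows from the UMIs per cell.

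With the replicate block for the pool the number of members called was 9 between genotypes after ATV:ISO, 7 for ATV:4D9 against 4D9, 6 between genotypes after ATV:4D9 and 5 for the interaction. The numbers of genes called with the block were 7166 after ATV:ISO (51% of those tested), 9823 for ATV:4D9 against 4D9 (69.9%), 4409 after ATV:4D9 (31.4%) and 4284 for the interaction (30.5%). Within clusters the block gave 2 members in cluster 0 in WT;TfRmu/hu mice and 2 between genotypes after ATV:ISO, 4 in cluster 3 in WT;TfRmu/hu mice, 1 in cluster 1, 4 in cluster 2 and 4 in cluster 5 for ATV:4D9 in App knock-in mice, and 3 in each of clusters 4 and 5 between genotypes after ATV:4D9, beside 4.83% to 33.1% of all genes in these fits. The block changed 18 of the 70 member results, all by adding a call.

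Without cluster 5 the members called were 6 for ATV:4D9 against 4D9, beside 54.0% of all genes, and 1 between genotypes after ATV:4D9, beside 976 genes (6.98%). Without cluster 5 and with the block they were 9 after ATV:ISO, beside 7179 genes (51.4%), and 6 against 4D9, beside 69.6% of all genes. In those fits 3103 (22.2%) and 3751 (26.8%) genes were called between genotypes after ATV:4D9 and for the interaction. In cluster 2, sums of at least 20 cells left 0 members called between genotypes after ATV:4D9, beside 2.07% of all genes. The causes were not tested. Leaving out 1 mouse gave 3 to 7 members for ATV:4D9 in App knock-in mice, beside 48.0% to 53.3% of all genes. Between genotypes after ATV:4D9 it gave 1 to 3 members, beside 1103 to 1719 genes (7.75% to 12.2%). It gave 0 to 1 member in clusters 2 and 4 in that comparison, and 1 to 2 in cluster 5 for ATV:4D9. With all mice 2.35%, 2.53% and 28.1% of all genes were called in those clusters. Over all fits without 1 mouse, 608 member results were unchanged, 23 lost and 9 gained a call. Depth limits Tlr9 most, with 41 to 198 UMIs per mouse.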
